A study of Mus musculus with 42 samples.

Results

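The comparison described here is the change in the pulldown-to-input ratio of every gene other than an olfactory receptor when mice smelled a lard-based high-fat diet (HFD) instead of no odour. Phosphorylated S6 ribosomal subunit capture (pS6-ribotrap) uses an antibody to isolate ribosomes whose S6 protein is phosphorylated. The RNA bound to them (pulldown, labelled Ribo) was sequenced beside input RNA (labelled Input). Pulldown and input were paired here by the pool number in their labels. The groups compared held 20 of the 42 libraries, namely pulldown and input of the NoOdour pools 1, 2, 3, 4 and 6 and of the HFD pools 1, 2, 3, 5 and 6. All pools came from the main olfactory epithelium of male C57BL/6NCrl mice of 8–12 weeks, and each pool held 4 epithelia. HFD pools were taken after 1 h of odour, and the NoOdour pools received none. The other 22 libraries came from mice that smelled normal chow (NCD, 6 pools) or a bacon-flavoured diet (labelled Bacon, 5 pools). They were part of the same fit and so entered its estimate of the spread. The whole epithelium was homogenized, so that neurons, supporting cells, glands, glia and blood cells all contributed RNA, and fewer cells of a type cannot be told apart from less RNA per cell.

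Libraries held 24.8 M to 36.8 M estimated counts. Of 21168 genes with enough counts, 908 were olfactory receptors and the 20260 others are described here. Olfactory marker protein (Omp), which defines mature olfactory sensory neurons (OSNs), averaged 6714 CPM (counts scaled to a common library size) in the NoOdour pulldown and 7063 CPM in the NoOdour input. Counts on ribosomal RNA-like genes took 19.2–28.1% of the NoOdour inputs against 9.38–18.9% of the HFD inputs, and 11.6–23.2% of the NoOdour pulldowns against 8.26–14.7% of the HFD pulldowns. The input of NoOdour pool 4 had the lowest mean correlation with its group (0.975, against 0.980–0.982 in the other 4), and the inputs of NoOdour pools 4 and 6 held 12.5 and 15.5 CPM of the gland gene Dmbt1 against at least 45.9 CPM in pools 1, 2 and 3. Nothing in the labels says that pools were processed on different days, so no batch could be tested.

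**Figure D1:**
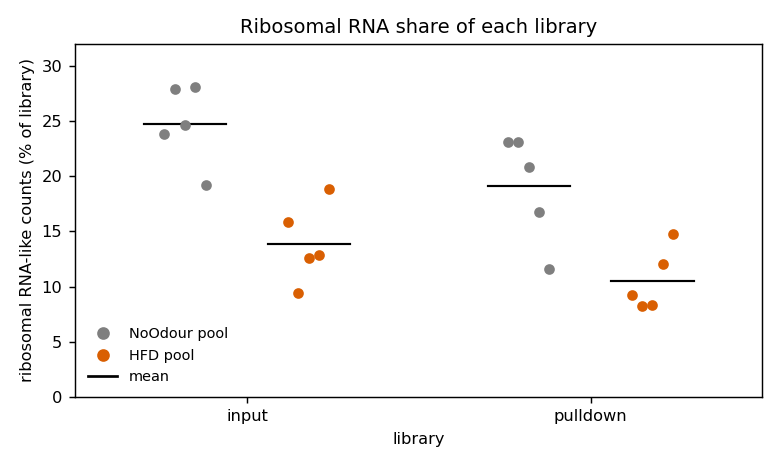
Share of each library's counts on ribosomal RNA-like genes (y axis, %), for input and pulldown libraries of the NoOdour (grey) and HFD (orange) pools, with the group mean as a black line. The 5 NoOdour inputs (19.2–28.1%) all lie above the 5 HFD inputs (9.38–18.9%), and the pulldown groups overlap.

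The olfactory epithelium detects volatiles with sensory neurons that are renewed throughout life from basal progenitors. Supporting cells metabolize odorants and keep the epithelium together, and glands below it secrete a mucus rich in lipocalins, odorant-binding proteins and antimicrobial proteins. Phosphorylation of S6 follows activity of the mTOR and MAP kinase pathways, which odours raise in the neurons that respond to them, but which also vary in other cells.

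Among the named genes that rose with the smallest p were several secreted proteins of nasal glands, beside the membrane protein Fxyd3 and the endoplasmic reticulum protein Rcn1. A script searched the 100 bases before each gene's start, as annotated by RefSeq on GRCm38.p6, for the letters TATAAA on either strand, the core of the TATA box. Of 32851 promoters in the table, 5.56% held them. That share is by promoter, whereas the counts that follow are by gene, with any promoter of the gene sufficing. Of the 15 genes chosen by p or by size among those that rose, 13 had a promoter in the table and 6 of these held TATAAA, namely Bpifb9a, Bpifb9b, Obp1a, Obp2b, Pip and Wfdc18. None of the 10 with a promoter among the 15 that fell held it. These counts describe genes chosen for their change and were not tested. The 30 bases around TATAAA (in capitals), read along the strand of the gene, are shown for 5 of the 6, without Obp2b.
Bpifb9a (chr2:154257813-154257842, plus strand): cactggatgggcTATAAAaggggacacatg
Bpifb9b (chr2:154307185-154307214, plus strand): cactggatgggcTATAAAaggggacacatg
Obp1a (chrX:78091387-78091416, minus strand): tttcactaaatgTATAAAaacctttgttag
Pip (chr6:41847509-41847538, plus strand): ctgtgaactgtaTATAAAacctgcgctgag
Wfdc18 (chr11:83708961-83708990, plus strand): tcagatatgaaaTATAAAaagagtcaagtt
The windows of Bpifb9a and Bpifb9b were identical at all 30 bases. These neighbours on chromosome 2 are close copies, as are many Mup, Obp and Lcn genes, so the estimated counts could be divided between copies by the quantification and each single value is uncertain to that extent.

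With HFD odour, the pulldown-to-input ratio was higher for 1528 genes (7.54% of those tested) and lower for 1693 (8.36%), in all 3221 or 15.9%, by the quasi-likelihood test of edgeR at a Benjamini-Hochberg adjusted p under 0.05. At an adjusted p under 0.001, 136 genes were higher (0.671%) and 110 lower (0.543%). Changes were mostly small, with a median log2 change of 0.51 among the genes that rose and −0.46 among those that fell, and 151 and 83 genes respectively moved by more than 1 on the log2 scale. The 5 HFD pools did not overlap the 5 NoOdour pools for 2139 genes (10.6%), with HFD higher for 988 (4.88%) and lower for 1151 (5.68%). In the input libraries by themselves 2290 of 19546 genes were higher (11.7%) and 2096 lower (10.7%), and in the pulldown libraries 2051 of 18937 were higher (10.8%) and 2062 lower (10.9%). With the compared groups only, 1100 genes were higher and 1031 lower in the ratio, and 589 were called in the input in place of 4386. Ribosomal RNA content moved with the groups, and with its share in the input as a covariate only 12 genes were higher and 3 lower, while with its share in the pulldown 58 were higher and 24 lower. With the pulldown share all 3221 called genes kept their direction, with a median absolute log2 change of 0.42 in place of 0.48 and a median standard error of 0.17 in place of 0.12. Under the input covariate the 3221 called genes kept their direction in 2873 cases, with a median absolute log2 change of 0.24 and a median standard error of 0.21. The input share did not overlap between the groups, so that it and odour cannot be told apart for the genes that lost their call. Without NoOdour pools 4 and 6, 838 genes were higher and 1338 lower, and without HFD pool 2, 888 were higher and 993 lower.

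Several gland secretions had the smallest p-values of HFD over no odour, and 7 of the 10 named genes that rose with the smallest p stayed called with either ribosomal RNA share as covariate, namely Bpifb9a, Bpifb9b, Bpifb5, Cabs1, Pip, Odam and Wfdc18. Obp2b, Fxyd3 and Rcn1 stayed called only with the share in the pulldown. Bpifb9b, a secreted protein of the bactericidal/permeability-increasing fold family, had log2 pulldown-to-input ratios of −1.65, −1.44, −1.63, −1.13 and −0.75 in the NoOdour pools and 0.75, 0.54, 0.56, 0.57 and 0.60 in the HFD pools. Every HFD pool was above every NoOdour pool. The change was 1.93 ± 0.13 (log2, SE), with an adjusted p of 2.03e-10 in edgeR's quasi-likelihood test. The pulldown level carried it, with 3590, 4000, 3820, 2850 and 2980 CPM in the NoOdour pulldowns and 14000, 12800, 13200, 14100 and 14200 CPM in the HFD pulldowns. The input level differed by only −0.01 log2 between the groups (adjusted p = 0.966), although NoOdour pools 4 and 6 held 6270 and 5020 CPM against 10800–11800 in the other 3. Its neighbours Bpifb9a and Bpifb5 rose by 2.07 ± 0.14 and 1.96 ± 0.13.

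**Figure D2:**
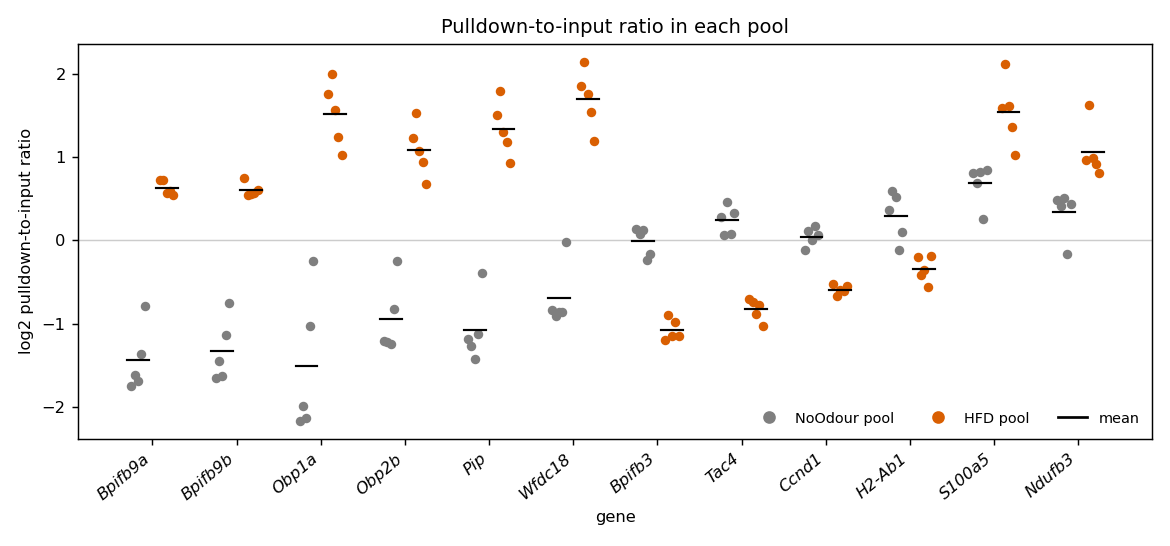
Log2 pulldown-to-input ratio (y axis) of 12 genes in each of the 5 NoOdour (grey) and 5 HFD (orange) pools, with the group mean as a black line. Gland secretions such as Bpifb9b and Wfdc18 lie higher in every HFD pool, and Bpifb3, Tac4 and Ccnd1 lie lower in every HFD pool.

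Odorant-binding proteins and other lipocalins, which carry small hydrophobic molecules through mucus, rose as a group. Of 14 members tested, 10 were higher and 1, Lcn2, was lower, against 7.54% and 8.36% of all genes. The median log2 change was 1.96 against −0.02 over all genes tested. Obp1a had log2 ratios of −2.16, −1.98, −2.13, −1.02 and −0.25 in the NoOdour pools and 1.76, 1.99, 1.56, 1.24 and 1.03 in the HFD pools. Its groups did not overlap, NoOdour pools 4 and 6 were the highest of their group, and the change was 3.04 ± 0.30 (adjusted p = 5.68e-06). Obp2b rose by 2.05 ± 0.18, Mup5, a major urinary protein of the lipocalin family, by 2.71 ± 0.26, and Lcn11 by 2.71 ± 0.30. The calls of Obp1a, Obp2b, Mup5 and Lcn11 stayed with the pulldown ribosomal RNA share as covariate. With the input share they were lost, at log2 changes of 2.20, 1.43, 2.11 and 2.01. The adjusted p by edgeR's quasi-likelihood test was then 0.127, 0.0601, 0.0979 and 0.215. The list's median change was 2.41 in the pulldown libraries alone and 0.17 in the inputs alone.

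Other secreted proteins moved the same way. Wfdc18, a small protein with a protease inhibitor domain, was at 713–936 CPM in the NoOdour pulldowns and 4360–4840 CPM in the HFD pulldowns, with inputs of 724–1700 and 1100–1910 CPM. Its pulldown groups lay far apart while its inputs overlapped, and the ratio rose by 2.40 ± 0.18 (adjusted p = 9.85e-09). Pip, the prolactin-induced protein found in many exocrine secretions, rose by 2.46 ± 0.17, Odam by 2.37 ± 0.17 and Cabs1 by 2.49 ± 0.16. The pancreatic lipase relative Pnliprp1 (2.95 ± 0.47) and the exocrine gland secreted peptide Esp8 (2.73 ± 0.40) had some of the largest changes at low levels, with 0.165 and 0.275 CPM in the NoOdour pulldown. With the input ribosomal RNA share as covariate neither call was kept, and with the pulldown share only that of Esp8. The membrane protein Fxyd3, which modulates the sodium pump, and the endoplasmic reticulum calcium-binding protein Rcn1 rose by 1.46 ± 0.15 and 0.79 ± 0.08.

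The broader list of nasal gland and mucus genes did not rise as a whole. Of 32 tested, 8 were higher and 6 lower, against 7.54% and 8.36% of all genes, with a median log2 change of 0.02. Sval2 rose by 2.52 ± 0.36 and Dmbt1, a mucosal scavenger receptor, by 0.92 ± 0.14, whereas the ratio of the olfactory glutathione peroxidase Gpx6 fell by 0.94 on the log2 scale (SE 0.17). The calls of Sval2, Dmbt1 and Gpx6 were lost with either ribosomal RNA share as covariate. Of 11 Bpif proteins, 3 rose and 4 fell, with a median of −0.41. Among those that fell was Bpifb3, on the same chromosome as Bpifb9b, with log2 ratios of 0.14, 0.08, 0.12, −0.23 and −0.16 without odour and −1.19, −0.89, −1.14, −0.98 and −1.14 with HFD odour. All HFD pools were below all NoOdour pools, and the change was −1.06 ± 0.12 (adjusted p = 1.48e-06). The pulldown level went from 1390–1800 to 518–666 CPM.

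Tac4, which encodes tachykinin peptides of the endokinin and hemokinin type, had the smallest p among the genes that fell. Its log2 ratios were 0.28, 0.06, 0.46, 0.08 and 0.33 in the NoOdour pools and −0.70, −0.74, −0.88, −0.77 and −1.03 in the HFD pools, with no overlap. The change was −1.07 ± 0.10 (adjusted p = 9.05e-08), and both Tac4 and Bpifb3 stayed lower with either ribosomal RNA share as covariate. The others that fell with the smallest p were Trim36 (−0.71 ± 0.09), an E3 ubiquitin ligase, the centriole duplication factor Stil (−0.77 ± 0.10), the nucleoporin Nup214 (−0.64 ± 0.09), the histone methyltransferase relative Prdm2 (−0.68 ± 0.09), the semaphorin receptor Plxnd1 (−0.82 ± 0.11), the cell cycle gene Ccnd1 (−0.63 ± 0.09), the zinc finger gene Zfp592 (−0.62 ± 0.09) and the receptor phosphatase Ptprf (−0.60 ± 0.08). For Zfp592 the pulldown differed by −0.12 (adjusted p = 0.143) and the input by 0.50 (adjusted p = 0.00025), so that the difference lay in the input. Among called protein-coding genes with a mean of at least 1 CPM in libraries of one type, the largest falls were of genes near that level. These were Mybpc1 (−1.93 ± 0.41), Ccr10 (−1.71 ± 0.44), A2m (−1.62 ± 0.50), the trace amine receptor Taar6 (−1.54 ± 0.38) and Trem1 (−1.50 ± 0.46). The groups overlapped for all of these but Mybpc1. The pulldowns of NoOdour pools 4 and 6 held 0.712 and 0.779 CPM of Mybpc1, against 2.39–3.15 in pools 1, 2 and 3. They held 0.524 and 0.592 CPM of A2m, against 2.12–3.14. The HFD pulldowns held 0.2–0.967 CPM of Mybpc1 and 0.158–0.527 CPM of A2m.

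Genes of dividing progenitors that were called were all lower. Of 20 neurogenic progenitor genes, 8 were lower, against 8.36% of all genes, and none higher, with a median log2 change of −0.28, and the median was −0.30 in the pulldown and 0.02 in the input. Mcm3 and Mcm6, subunits of the replicative helicase, fell by 0.72 and 0.60 on the log2 scale, and the topoisomerase Top2a by 0.53. Of 21 genes of immature OSNs, 4 were lower and none higher (median −0.10). Dpysl5 and Dpysl3, which act in growing axons, changed by −0.74 ± 0.12 and −0.50 ± 0.09. Dcx, a microtubule-binding protein of young neurons, changed by −0.49 ± 0.10, and this lay in the input, with 534 and 538 CPM in the pulldown against 566 and 800 CPM in the input.

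Genes of mature OSNs were divided. Of 45 tested, 7 were higher and 3 lower, against 7.54% and 8.36% of all genes, with a median log2 change of 0.01. In the pulldown alone 12 of the 45 were higher and 3 lower (median 0.06), against 10.8% and 10.9% of all genes. In the input alone 13 were higher and 3 lower (median 0.10), against 11.7% and 10.7%. S100a5, a calcium-binding protein of OSNs whose level follows activity, had log2 ratios of 0.81, 0.69, 0.82, 0.26 and 0.85 without odour and 1.59, 2.12, 1.61, 1.36 and 1.03 with HFD odour. The groups did not overlap and the change was 0.85 ± 0.17 (adjusted p = 0.00201), of which the pulldown gave 0.30 (adjusted p = 0.0744) and the input −0.57 (adjusted p = 0.011). Pcp4l1 rose by 0.51 ± 0.12 and Omp by 0.42 ± 0.10. For Omp the groups overlapped. By edgeR's quasi-likelihood test its pulldown gave 0.15 (adjusted p = 0.194) and its input −0.28 (adjusted p = 0.0247). The calls of S100a5, Pcp4l1 and Omp were lost with either ribosomal RNA share as covariate. Among 39 synapse genes, 3 were higher, including the synaptotagmin Syt4 (0.42 ± 0.08), and 8 were lower, including the active zone scaffold Pclo (−0.82 ± 0.18), against 7.54% and 8.36% of all genes.

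Fos, Egr1 and Nr4a1 rose in both kinds of library without a called change of the ratio. Of 28 early response genes other than those of AP-1, 11 were higher in the input alone and 13 in the pulldown alone, and 2 were lower in each, against 11.7% and 10.8% higher over all genes. Of the 8 AP-1 genes, 2 were higher and 1 lower in the input (median 0.05), and 2 were higher in the pulldown (median 0.03). Fos, an AP-1 transcription factor switched on within minutes of activity, was at 2.06, 2.70, 3.01, 3.05 and 2.35 CPM in the NoOdour inputs and 7.51, 7.13, 5.69, 7.57 and 7.93 CPM in the HFD inputs. In the pulldown it was at 5.46, 5.31, 6.77, 6.48 and 5.67 CPM and at 14.3, 14.8, 14.2, 13.2 and 13.5 CPM. Both kinds of library separated the groups, with changes of 1.45 in the input (adjusted p = 5.16e-09) and 1.23 in the pulldown (adjusted p = 3.9e-08). The ratio differed by −0.21 ± 0.16 (adjusted p = 0.414). Egr1 and Nr4a1, also transcription factors of the early response, gave input changes of 0.77 and 1.10, pulldown changes of 0.98 and 1.25, and ratio changes of 0.22 ± 0.10 and 0.17 ± 0.12 that were not called. These 3 genes were chosen after their values were seen. None of the 8 AP-1 genes was called in the ratio by edgeR's quasi-likelihood test. Of 28 other early response genes 4 were higher, against 7.54% of all genes, including the antiproliferative genes Btg1 (0.41 ± 0.10) and Btg2 (0.43 ± 0.11). One, Arc, was lower in the ratio, with an input that rose by 0.82 (adjusted p = 0.00215) and a pulldown change of −0.27 that was not called (adjusted p = 0.0662). This regulator of synaptic receptors had log2 ratios of 0.81, 0.95, 0.73, 2.05 and 1.05 without odour and −0.05, 0.00, 0.07, 0.00 and −0.16 with it, a change of −1.12 ± 0.20 (adjusted p = 0.000603).

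**Figure D3:**
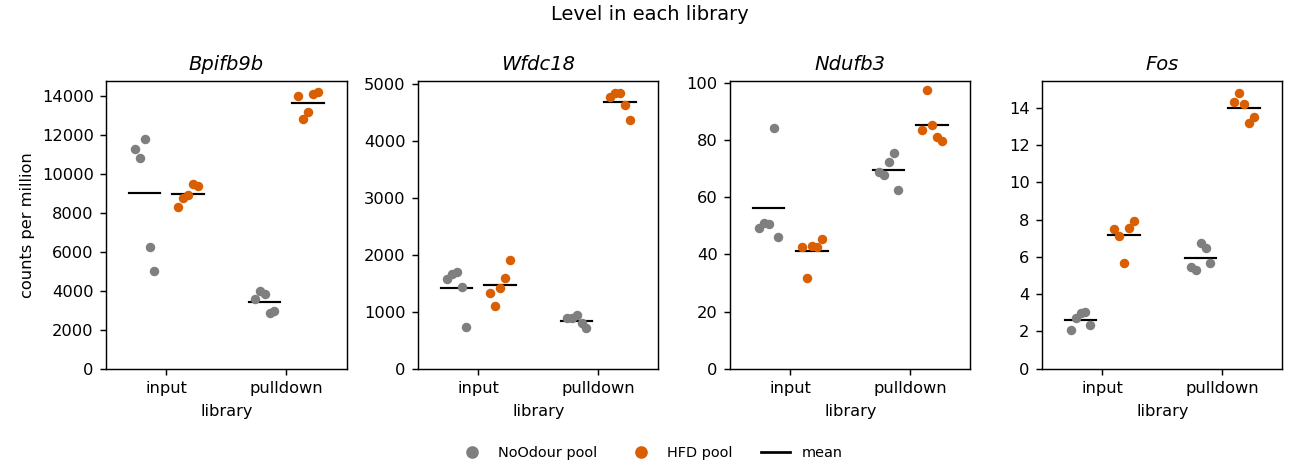
Level of 4 genes in CPM (y axis, from 0) in the input and pulldown libraries of the NoOdour (grey) and HFD (orange) pools, with the group mean as a black line. Bpifb9b and Wfdc18 lie apart in the pulldown and overlap in the input, Ndufb3 is lower in all 5 HFD inputs than in any NoOdour input, and Fos is higher in both kinds of library.

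Genes of the respiratory chain encoded in the nucleus had the most members higher of any list by number, with 48 of 80, against 7.54% of all genes. None was lower. The median log2 change was 0.57, and it lay in the input, where the median was −0.45, against 0.09 in the pulldown. Over no odour, 54 of these 80 genes were also higher with NCD and 73 with Bacon, against 6.63% and 12% of all genes. Ndufb3, a subunit of complex I, had log2 ratios of 0.49, 0.41, 0.51, −0.16 and 0.44 without odour and 0.97, 1.62, 0.99, 0.92 and 0.81 with HFD odour. The groups did not overlap, NoOdour pool 4 was lowest and HFD pool 2 highest, and the change was 0.72 ± 0.14 (adjusted p = 0.00191). The input of NoOdour pool 4 held 84.3 CPM of Ndufb3 against 46.2–51.1 in the others of its group. Sdhd of complex II rose by 0.55 ± 0.11 and Ndufc1 of complex I by 0.75 ± 0.15. Of 77 mitochondrial ribosomal proteins 30 were higher, against 7.54% of all genes, and none lower (median 0.33), led by Mrps14 (0.70 ± 0.13). None of the 13 protein genes of the mitochondrial genome was called, although all 13 had a positive change (median 0.37).

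Fewer cytosolic ribosomal protein genes passed the test. Of 82 ribosomal protein genes, 8 were higher and none lower (median 0.30), among them Rps27l (0.81 ± 0.19), and the pulldown median was −0.09 against −0.36 in the input. Of 63 histone genes 6 were higher (median 0.27), and of 38 proteasome subunits 3 were higher (median 0.13), shares near the 7.54% of all genes. Of 26 genes of iron handling and oxidative stress 5 were higher, including glutathione peroxidase Gpx1 (0.71 ± 0.16) and superoxide dismutase Sod1 (0.50 ± 0.12), whose direction turned with the input ribosomal RNA share as covariate (−0.0162). Across protein-coding genes the shortest of 10 equal groups by transcript length (90–658.5 bases) had a median log2 change of 0.12 with 269 genes higher and 123 lower, and the longest (from 3698 bases) a median of −0.21 with 30 higher and 309 lower. The medians in the pulldown alone stayed between −0.05 and −0.03 in all 10 groups, whereas those in the input went from −0.14 to 0.16. With each library's trend with length and GC content removed, 1394 genes were higher and 1633 lower.

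**Figure D4:**
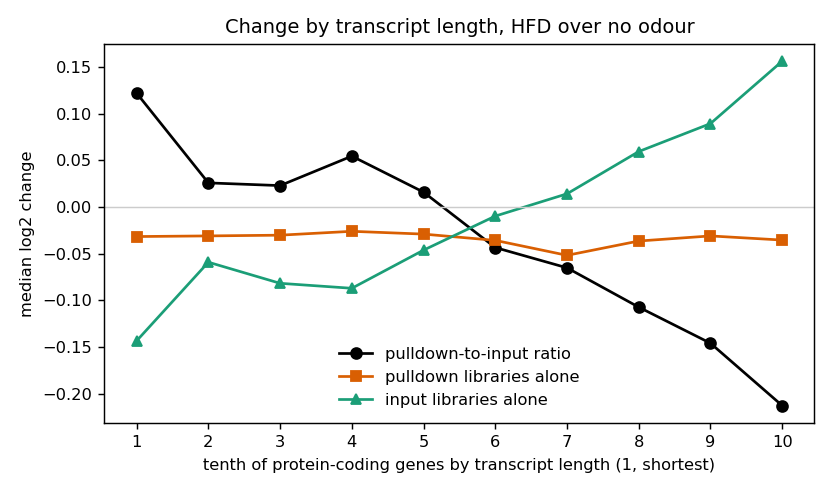
Median log2 change, HFD over no odour (y axis), of protein-coding genes in 10 equal groups by transcript length (x axis, 1 the shortest), for the pulldown-to-input ratio (black), the pulldown alone (orange) and the input alone (green). The ratio goes from 0.12 to −0.21 and the input from −0.14 to 0.16, while the pulldown is flat.

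Of the genes that rose, 643 were called higher in the pulldown fit and not lower in the input fit, 584 lower in the input fit and not higher in the pulldown fit, 122 in both and 179 in neither. The genes that fell were divided in the same manner, with 652, 716, 125 and 200. Bpifb9b is an example of the first kind and Sdhd of the second.

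Of 26 macrophage and monocyte genes, 10 were lower, against 8.36% of all genes, and none was higher, with a median log2 change of −0.40 in the ratio, −0.67 in the pulldown and −0.26 in the input. Their summed level was 744.1–1003 CPM in the NoOdour pulldowns and 529.9–561.6 CPM in the HFD pulldowns. H2-Ab1, which presents peptides to T cells, had log2 ratios of 0.36, 0.59, 0.52, −0.11 and 0.10 without odour and −0.20, −0.41, −0.36, −0.56 and −0.19 with HFD odour, without overlap. It fell by 0.64 on the log2 scale (SE 0.11), its chaperone Cd74 by 0.68 and the macrophage growth factor receptor Csf1r by 0.59. For the counts of other cell types below, 7.54% of all genes were higher and 8.36% lower in the ratio. Of 25 neutrophil genes, 5 were lower, including Lcn2 (−0.44 ± 0.12) and Anxa1 (−0.40 ± 0.11), and 2 were higher, including lactoferrin, Ltf (0.41 ± 0.08), which glands also secrete. Of 21 B and plasma cell genes 1 was higher and 2 were lower, among them the IgA heavy chain gene Igha (−0.69 ± 0.12), whose input rose by 0.94 and whose pulldown rose by 0.24. Of genes of cells in the tissue below the epithelium, 1 of 17 endothelial genes was higher and 2 lower, 3 of 28 fibroblast and matrix genes were lower, and 1 of 17 muscle genes was higher and 5 lower. In the separate fits, 10.9% of all genes were lower in the pulldown and 10.7% in the input. Of the 28 fibroblast and matrix genes, 13 were lower in the pulldown and 16 in the input. Of 23 bone and cartilage genes, 3 were lower in the ratio, 11 in the pulldown and 12 in the input. The matrix and bone genes moved with the macrophage genes, and their part in that result was not tested.

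Supporting cell genes moved little, with 1 of 42 higher and 5 lower (median −0.19). The aldehyde dehydrogenase Aldh3a1 (−0.70 ± 0.13), keratin 8 (Krt8, −0.40 ± 0.11) and E-cadherin (Cdh1, −0.46 ± 0.14) were lower. Of 13 genes of horizontal basal cells, the reserve stem cells, none was called (median −0.48), and Krt5 differed by −0.48 ± 0.44. Of 36 genes of motile cilia 12 were lower and 2 higher (median −0.35), against 8.36% and 7.54% of all genes. The axonemal protein Ccdc40 and the adenylate kinase Ak7 changed by −0.41 ± 0.08 and −0.49 ± 0.10, while Pifo rose by 0.58 ± 0.13. Among 19 genes of microvillous tuft cells and ionocytes 4 were higher and 1 lower (median −0.17). Called or not, 9 of the 19 had a positive change. The transcription factors Ascl3 (0.90 ± 0.13) and Foxi1 (0.41 ± 0.10), which mark ionocyte-type cells, and Moxd1 (0.62 ± 0.14) rose.

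Glia of the olfactory nerve contributed 3 genes that rose among 17 tested, against 7.54% of all genes, and none that fell. Called or not, 7 of the 17 had a positive change. With NCD odour 3 of the 17 were higher, and with Bacon odour 3. Fabp7, a fatty acid-binding protein of ensheathing glia, had log2 ratios of −1.18, −1.33, −1.30, −1.76 and −1.14 without odour and −0.22, −0.07, −0.35, −0.39 and −0.40 with HFD odour. The groups did not overlap and the change was 1.05 ± 0.12 (adjusted p = 1.54e-06). Neuropeptide Y (Npy) rose by 1.56 ± 0.29. The list's median change was −0.04, against −0.02 over all genes tested, and its summed level was 404.3–478.3 CPM in the NoOdour pulldowns and 400.3–418.6 CPM in the HFD pulldowns.

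Genes of protein synthesis and stress changed by small amounts. Over all genes tested, the shares to set beside the counts below were 7.54% higher and 8.36% lower. Of 30 genes of the endoplasmic reticulum stress response, 8 were higher and 3 lower (median 0.09). Xbp1, a transcription factor needed by secretory cells, rose by 0.55 ± 0.09, asparagine synthetase (Asns) by 0.50 ± 0.09 and the transcription factor Atf4 by 0.68 ± 0.14. Of 25 genes of the mTOR and S6 kinase pathway 5 were higher and 6 lower (median −0.03). The translation inhibitors Pdcd4 (0.51 ± 0.10) and Eif4ebp1 (0.83 ± 0.18) and the mTOR activator Rheb (0.45 ± 0.09) rose. Among 38 translation factors 5 were higher, with Eif4a2 at 0.39 ± 0.08, and 3 lower, with Eif4g1 at −0.37 ± 0.08, which turned to 0.0237 with the input ribosomal RNA share as covariate. Among 23 heat shock genes 2 were higher and 5 lower, among them Hsp90aa1 (−0.57 ± 0.12) and Hsp90ab1 (−0.31 ± 0.08).

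Genes of metabolic signalling had few calls in the ratio in either direction. Beside the counts that follow, 7.54% of all genes tested were higher and 8.36% lower. Of 20 receptors and mediators of metabolic hormones 2 were higher and 3 lower, with the insulin receptor substrate Irs1 at −0.52 ± 0.09 and the oestrogen receptor Esr1 at −0.73 ± 0.21. Of 29 hypoxia and glycolysis genes 2 were higher and 3 lower, and of 23 cholesterol synthesis genes 1 and 2. Of 29 interferon response genes 2 were higher and 3 lower (median −0.20). Called or not, 7 of these 29 had a positive change. Of 49 genes of fatty acid and lipid uptake 2 were higher, Fabp7 among them, and 3 lower (median −0.11), and 17 had a positive change. In the pulldown alone 12 interferon genes and 15 lipid genes were lower, against 10.9% of all genes. There 1 and 3 were higher, against 10.8%. Of 20 circadian clock genes 3 were lower, including Per2 (−0.62 ± 0.13), and none was higher.

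**Figure D5:**
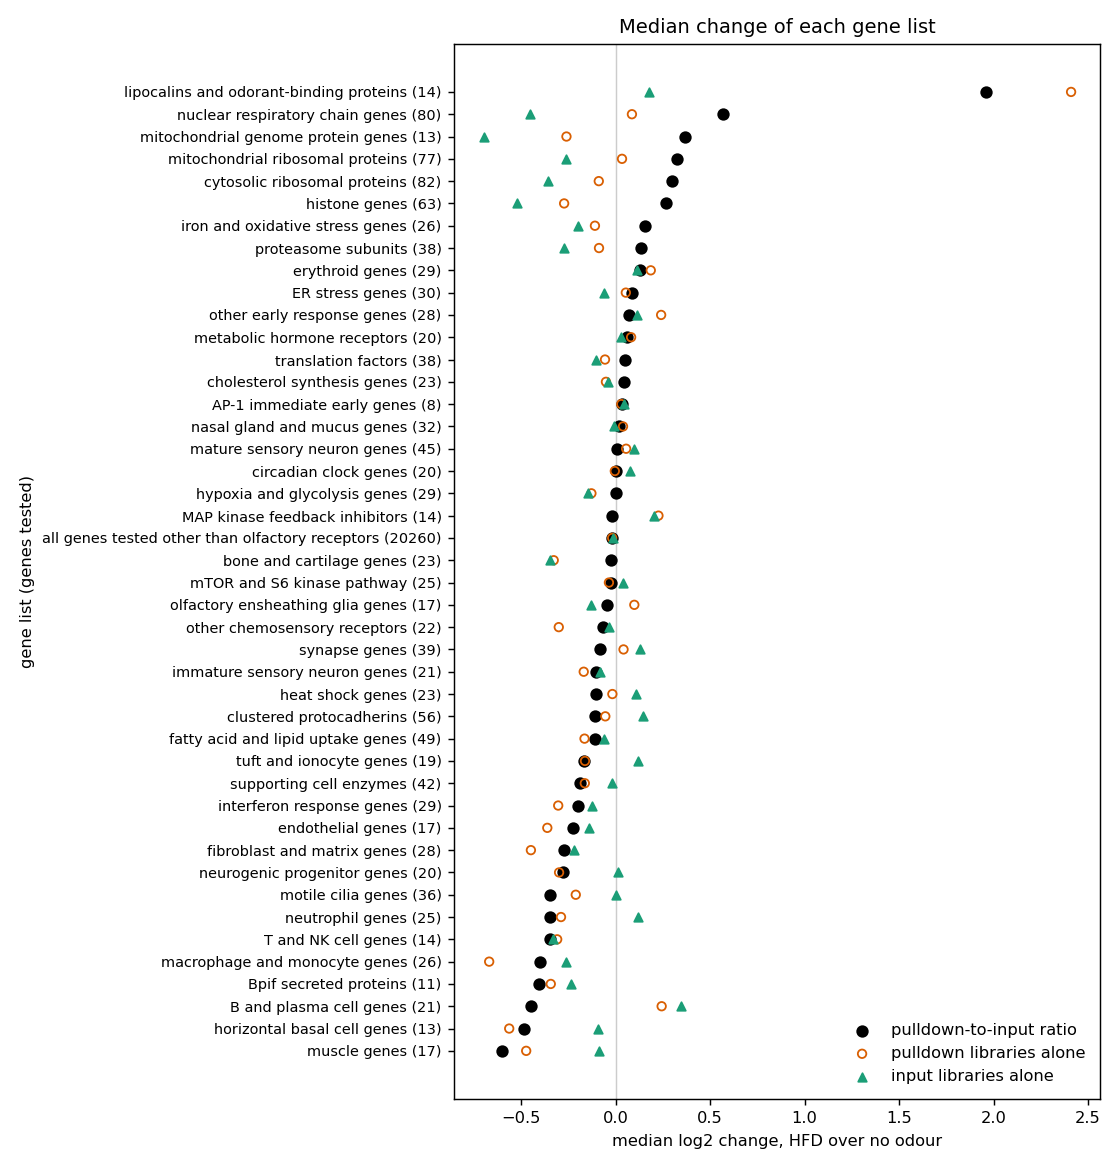
Median log2 change, HFD over no odour (x axis), of each gene list with at least 8 genes tested (y axis, number of genes in brackets), for the ratio (black), the pulldown alone (open orange) and the input alone (green triangles). Lipocalins stand at 1.96 through the pulldown, and respiratory chain genes at 0.57 through the input.

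The HFD values can be set beside those of the other diet odours, which share the same NoOdour pools, so that a value common to all 3 may come from those controls. Over no odour, NCD gave 1344 genes higher (6.63%) and 1330 lower (6.56%), in all 13.2%, and Bacon 2423 higher (12%) and 2219 lower (11%), in all 22.9%. Bpifb9b changed by 1.93 with HFD, 1.87 with NCD and 1.85 with Bacon odour, Wfdc18 by 2.40, 2.32 and 2.42, Tac4 by −1.07, −0.95 and −0.85, and Ndufb3 by 0.72, 0.64 and 0.90. Direct contrasts of the diet odours compare no NoOdour pool, although those pools entered the estimate of the spread. HFD differed from NCD in 8 genes (0.0395% of those tested), 4 higher (0.0197%) and 4 lower (0.0197%). It differed from Bacon in 10 (0.0494%), 2 higher (0.00987%) and 8 lower (0.0395%). These counts depended on the fit. In the pulldown libraries only, 186 genes differed from NCD and 138 from Bacon, DESeq2 on pulldown divided by input called 24 and 82, and without NoOdour pools 4 and 6 the counts were 14 and 43. Without NoOdour pool 4, or without Bacon pool 1, 25 differed from Bacon. Fewer differed from Bacon without Bacon pool 4 (4), HFD pool 3 (5) or either of Bacon pools 2 and 5 (6 each), and 5 differed from NCD without HFD pool 5.

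A few lipocalins rose less with HFD than with the other diets. Lcn4, a lipocalin of the nasal region, had log2 ratios of 0.57, 0.86, 0.60, 0.36 and 0.56 in the HFD pools, of 1.54–2.21 in the 6 NCD pools and of 1.01–2.13 in the 5 Bacon pools. The HFD pools lay below all pools of both other diets and above the NoOdour pools (−0.42 to 0.00). The difference was −1.30 ± 0.15 from NCD (adjusted p = 5.55e-05) and −1.13 ± 0.16 from Bacon (adjusted p = 0.000534). Lcn3 differed by −1.12 ± 0.16 and −1.07 ± 0.17, and Dmbt1 by −0.75 ± 0.13 and −0.70 ± 0.13. The genes known here only by identifier, ENSMUSG00000061305 (−1.56 ± 0.19 from NCD, −1.58 ± 0.19 from Bacon) and ENSMUSG00000095373 (−1.35 ± 0.18 from Bacon), were also lower. Bpifb9b, by contrast, differed by 0.06 ± 0.12 from NCD and 0.08 ± 0.13 from Bacon, and neither was called. The values for Lcn3 and Lcn4 changed little in a fit without the pool term, but their calls were lost there, with an adjusted p of 0.496 and 0.0535 against NCD. Against Bacon they were 0.338 and 0.112. The Lcn3 call against Bacon was also lost with the compared groups only. Both Dmbt1 calls were lost without the pool term, that against NCD also without HFD pool 1, and that against Bacon without any of Bacon pools 2, 3, 4 and 5 or HFD pools 1 and 3, with the compared groups only and with the input ribosomal RNA share as covariate.

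Higher with HFD than with NCD were Acsm4, an acyl-CoA synthetase of the olfactory epithelium, Fabp7, Fmo6 and 1700019D03Rik. Acsm4 had log2 ratios of 0.27, 0.12, 0.12, 0.35 and 0.44 in the HFD pools and of −0.21 to −0.04 in the NCD pools. The groups did not overlap and the difference was 0.41 ± 0.07 (adjusted p = 0.0103). Its ratio was −0.14 to 0.04 in the NoOdour pools. The call was lost without HFD pool 5 (0.39, adjusted p = 0.0665) or pool 6 (0.36, adjusted p = 0.0631). Fabp7 was 0.58 ± 0.11 above NCD (adjusted p = 0.025), a call lost on leaving out any of HFD pools 1, 2, 3 and 5 or of NCD pools 1, 3, 5 and 6. Higher than with Bacon were 4933404O12Rik (0.46 ± 0.09, adjusted p = 0.015) and Gm3667. The call of 4933404O12Rik was lost without Bacon pool 4 (adjusted p = 0.0515) or HFD pool 3 (0.102), with the compared groups only (0.093) and with the input ribosomal RNA share as covariate (0.0844).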

How the data were processed

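The authors' tool was Salmon with the GRCm38 build, and its estimated counts, summed by gene and not normalized, are what was deposited. Of the values 30.9% were not whole, and all were rounded here. Libraries held 24.8 M to 36.8 M counts. The table held 44674 genes, and 21168 passed edgeR's filter at a minimum count of 10 (908 olfactory receptors, 20260 others). Groups were taken from the labels. The main fit was edgeR 4.0.16's robust quasi-likelihood test (R 4.3.3) on all 42 libraries, with TMM scaling, a term per pool and pulldown-by-odour terms, and Benjamini-Hochberg adjustment over all 21168 genes at 0.05. Log2 ratios are pulldown minus input log2 CPM of the same pool with a prior count of 2. Input and pulldown libraries were also fitted by themselves with edgeR. Alternatives used DESeq2 1.42.0, other filters, other blocks, covariates and left-out libraries. The labels do not say whether pools of one group came from separate litters or days, so p-values measure the spread between pools only.

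Pulldown and input were paired by the pool number in the labels, which do not say that they share a homogenate. Deviations of paired libraries from their group means correlated at −0.085 to 0.218 (median 0.016), and 5 of 21 pulldowns correlated best with their own input. These correlations do not show the pairing, which every ratio and the pool term take from the labels. No 2 libraries of a group were duplicates, since the chi-square per degree of freedom of 90 pairs was at least 3.33. On simulated counts for HFD over no odour (20730 genes), 24 of 100 genes changed by 0.6 (log2) and 80 of 97 changed by 1.2 were recovered. Genes named are the 10 smallest p in each direction among called protein-coding genes, the 5 largest changes each way at a mean of at least 1 CPM, up to 3 called members of each list (2 by level where none was called), and up to 5 called in each direct comparison. Others are said to be chosen after their values were seen. Some genes that the rule names are not reported here. Members and lists were chosen with earlier results of these data known. Promoter sequences are from RefSeq on GRCm38.p6.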

Additional observations from a re-analysis of the deposited data

Results flagged for a closer look

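In groups of 5 pools, a pool was marked where its gap to the nearest other value, divided by the group's range, was over Dixon's 95% limit. Chance gives this in about 1 in 20 groups. NoOdour pool 4 accounted for most of these log2 pulldown-to-input ratios. It was low for Gpx6 (−1.46, others −0.90 to −0.70), S100a5 (0.26), Krt8 (−1.07), Ascl3 (0.07), Ndufb3 (−0.16), Ndufc1 (0.30), Gpx1 (0.27) and Eif4a2 (−0.51), and high for Dpysl5 (1.31, others 0.46–0.63), Pclo (1.10), Arc (2.05) and 4933404O12Rik (1.00). The input of this pool also had the highest mitochondrial share among the NoOdour and HFD inputs (17.2%). Whether this has a part in these values was not tested.

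NoOdour pool 6 was high for the gland genes Bpifb5 (−0.59), Lcn3 (0.46), Pip (−0.39) and Wfdc18 (−0.02), and NoOdour pool 1 was low for Esr1 (−0.72). Among HFD pools, pool 1 was high for Bpifb9b (0.75) and Igha (0.46), pool 2 for Ndufb3 (1.62) and Sod1 (0.59), and pool 6 for Moxd1 (0.93).

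The effects of HFD and the other diet odours differed by edgeR's quasi-likelihood test of the difference for 8 named genes. The log2 difference was −1.12 from NCD and −1.07 from Bacon for Lcn3, −1.30 and −1.13 for Lcn4, −0.75 and −0.70 for Dmbt1, and −1.56 and −1.58 for ENSMUSG00000061305. It was −1.35 from Bacon for ENSMUSG00000095373, 0.46 from Bacon for 4933404O12Rik, 0.58 from NCD for Fabp7 and 0.41 from NCD for Acsm4.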

How the results depend on the processing

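Counts are given as HFD over no odour higher and lower, HFD over NCD, HFD over Bacon (main 1528, 1693, 8 and 10), and input libraries (main 4386). An adjusted p under 0.001 gave 136, 110, 2, 3 and 196. DESeq2 with the same design called 15 against NCD and 38 against Bacon, and DESeq2 on pulldown divided by input 24 and 82. With the compared groups only, 1031 genes were lower, 5 differed from Bacon and 589 in the input. In pulldown libraries only, 186 differed from NCD and 138 from Bacon. The ribosomal RNA share as covariate gave 58 higher and 24 lower (pulldown) or 12 and 3 (input). Replicate numbers of different odours share only a number (54 pairs, r from −0.357 to 0.161). With the replicate block across odours 1361 were higher, 1530 lower and 4 differed from NCD, and with no replicate block 1489, 1665 and 5. Leaving out NoOdour pools 4 and 6 together, chosen after seeing the data, gave 838 higher, 14 against NCD and 43 against Bacon. Leaving out 1 pool gave 888–1883 higher, 993–2052 lower, 2493–5306 in the input (each lowest without HFD pool 2), 5–10 against NCD (5 without HFD pool 5) and 4–25 against Bacon, with 25 without NoOdour pool 4 or Bacon pool 1, 6 without Bacon pool 2 or 5, 4 without Bacon pool 4 and 5 without HFD pool 3. The direction turned in pulldown libraries only for Dcx (0.0069), Igha (0.24), Fos (1.23) and ENSMUSG00000061305 (0.0278), and with the input share as covariate for Sod1 (−0.0162), Eif4g1 (0.0237) and ENSMUSG00000061305 (0.18). With that covariate 78 of 95 named genes lost their call and 14 kept direction and side of the threshold, and with the pulldown share 63 and 32. Fewer samples or covariates collinear with odour enter by construction, and other causes were not tested.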
